A study of Mus musculus with 30 samples.

Results

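Soleus muscle of mice whose muscle lacked both catalytic subunits of the AMP-activated protein kinase (AMPK) was compared after 4 weeks of hindlimb unloading and after 4 weeks of normal cage activity. Hindlimb unloading keeps the hind paws off the ground, so that the soleus no longer bears weight. The comparison held 15 of the 30 RNA libraries in the series, chosen by the words for loading and genotype in the sample titles: 8 from unloaded and 7 from ambulatory mice of the genotype mKO, a muscle-specific double knockout of AMPKalpha1 and AMPKalpha2. The labels do not name the promoter that drives Cre in the mKO mice. The other 15 libraries came from controls that carry both floxed genes without Cre, 7 unloaded and 8 ambulatory, and every mouse was C57BL/6J and 3 to 4 months old. Of the ambulatory mKO mice 2 were female and 5 male, and of the unloaded ones 5 were female and 3 male, so sex was a term in the model, and leaving it out was an alternative. Each title carries a separate mouse number, but no label says how the mice were assigned or handled, and p-values measure the spread between these libraries.

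AMPK is a kinase that senses a fall in cellular energy: a catalytic alpha subunit works with a beta and a gamma subunit, and in muscle the kinase is known for promoting glucose uptake, fat oxidation and mitochondrial gene expression. The soleus is a postural muscle of the calf, rich in slow and oxidative fibres that are active whenever the animal stands. When it is unloaded it shrinks, its fibres shift from slow towards fast myosins, and genes of oxidative metabolism are known to decline. Contractile activity acts on fibre type through calcium, calcineurin and NFAT, and stretch acts through proteins of the Z-disc and titin such as the muscle ankyrin repeat proteins.

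One library stood apart before any comparison was made. Ambulatory mKO replicate 2 had a summed level of 9 muscle fibre markers of 9926 CPM (counts relative to the library's total), against 190816 to 288614 CPM in the other 6 ambulatory libraries and 105815 to 324510.4 CPM in the unloaded ones. Its 10 adipocyte markers summed to 12393 CPM, against 1032 to 3284 and 1114 to 4674 CPM. Its Schwann cell markers summed to 1577 CPM, and unloaded replicates 2 and 3 also carried high Schwann cell sums of 852 and 1795 CPM beside 45.4 to 89.8 CPM in the other 12 libraries. Changes below are therefore given without ambulatory replicate 2 (8 against 6 libraries), with the value over all libraries (8 against 7) beside each change. Ambulatory replicate 4 also differed, with the lowest share of mitochondrial reads and the highest Col1a1 of the ambulatory libraries, and values without it are given where they end a call. Totals ran from 12958437 to 18518415 counts in the ambulatory and from 12083415 to 17510056 in the unloaded mKO libraries. CPM were scaled by trimmed-mean factors, and a log2 change is unloaded minus ambulatory with its standard error. A gene rose or fell where its Benjamini-Hochberg adjusted p over all genes tested was under 0.05 in edgeR's quasi-likelihood test. In whole muscle, fewer cells of a type and less RNA per cell cannot be told apart.

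**Figure D1:**
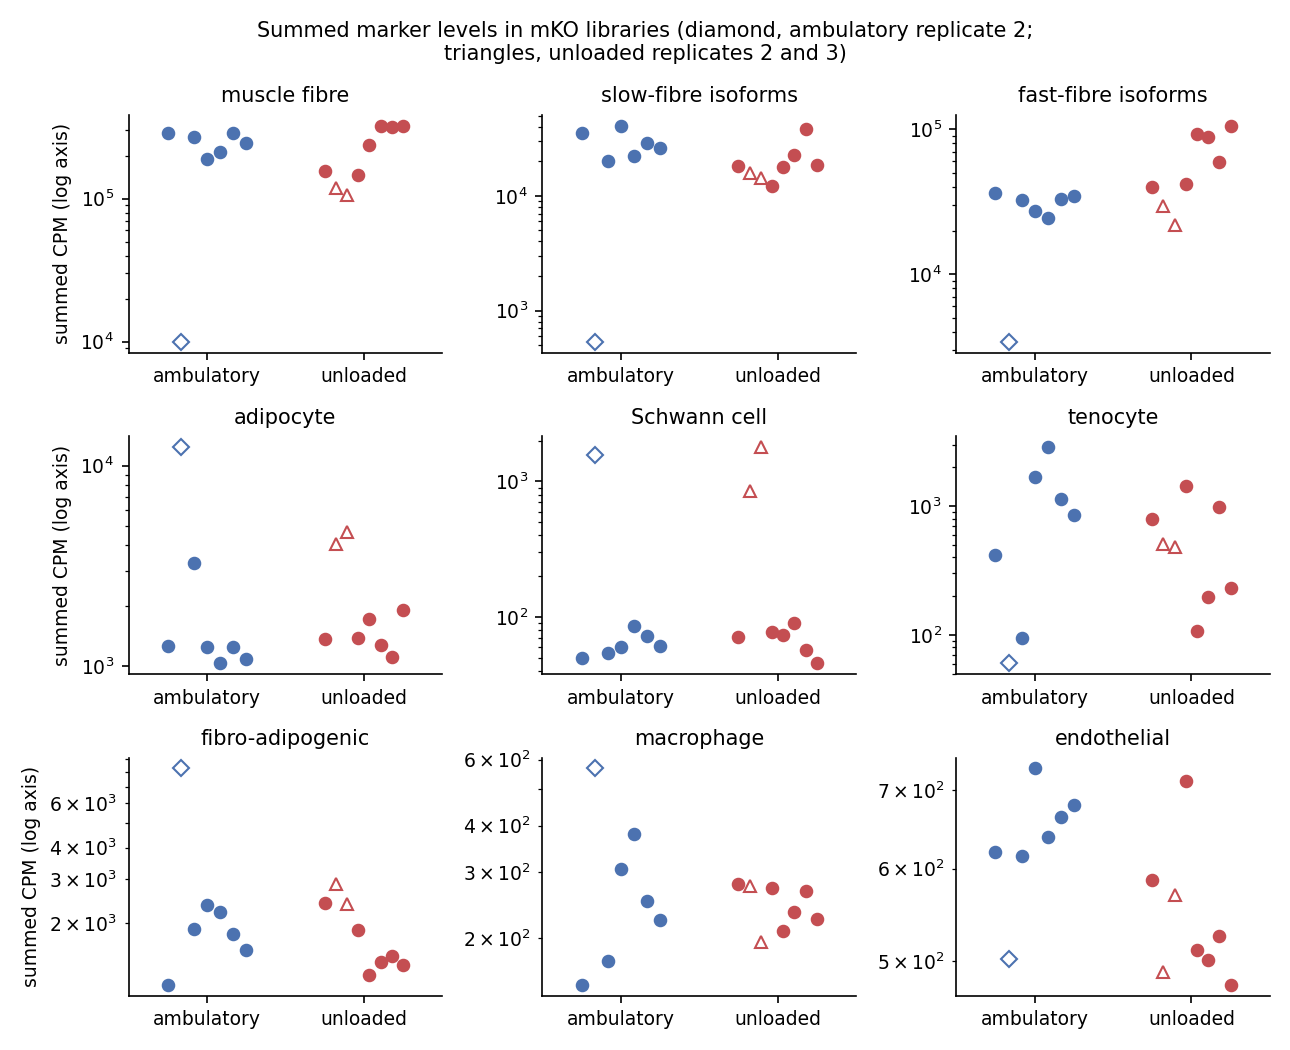
Summed CPM of 9 marker lists in the 15 mKO libraries (log axes, 1 point a library, ambulatory on the left and unloaded on the right). Ambulatory replicate 2 (diamond) lies far below the rest in muscle fibre markers, at 9926 CPM, and above them in adipocyte markers, at 12393 CPM, and unloaded replicates 2 and 3 (triangles) share its high Schwann cell level.

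The targeted genes did not pass the test between the loading states. Prkaa1, which encodes AMPKalpha1, stood at 8.21 to 17.9 CPM (median 14.3) in the 6 ambulatory libraries and 13.4 to 24.3 CPM (median 16.2) in the 8 unloaded ones, and at 36.2 CPM in replicate 2 (log2 change 0.27 ± 0.16, adjusted p = 0.28, and -0.059 with replicate 2). Prkaa2, which encodes AMPKalpha2, stood at 37.8 to 85.2 CPM (median 72.5) in the 6 ambulatory libraries and 56 to 112 CPM (median 80.3) in the 8 unloaded ones, and at 15 CPM in replicate 2 (log2 change 0.28 ± 0.19, adjusted p = 0.363, and 0.48 with replicate 2). The groups overlapped for both genes. In the controls Prkaa2 averaged 213 ± 28.4 CPM (SD, n = 8) when ambulatory and 254 ± 73.2 CPM (SD, n = 7) when unloaded, and Prkaa1 averaged 21 ± 2.75 and 25.3 ± 2.98 CPM. Reads of exons that were not deleted, and of cells other than fibres, enter these gene totals.

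Unloading changed 2302 of 17055 genes in mKO soleus without replicate 2, or 13.5% of those tested: 1138 rose (6.67%) and 1164 fell (6.82%). Of these, 334 rose and 321 fell by at least 2-fold. With all libraries 1702 of 16932 genes passed (10.1%), 897 higher (5.3%) and 805 lower (4.75%). Both fits called 779 genes higher and 584 lower, and none in opposite directions. Of the genes called in both, 482 had groups without overlap when replicate 2 was left out and 243 with it in. The calls rest on the same values, and genes without overlap were not counted over all those tested. These counts therefore do not say how common separation was. The median log2 change over all genes was 0.034 without replicate 2 and -0.035 with it, so changes near those sizes carry no direction. Beside the shares of each gene list called below, 6.67% higher and 6.82% lower are the shares over all genes tested. A percentage in brackets after a list's count by DESeq2, limma-voom or unadjusted p is likewise the share of all genes that met that criterion. Some genes, such as Sdhc and Fabp3, stand in several lists, so the counts of lists are not separate results.

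**Figure D2:**
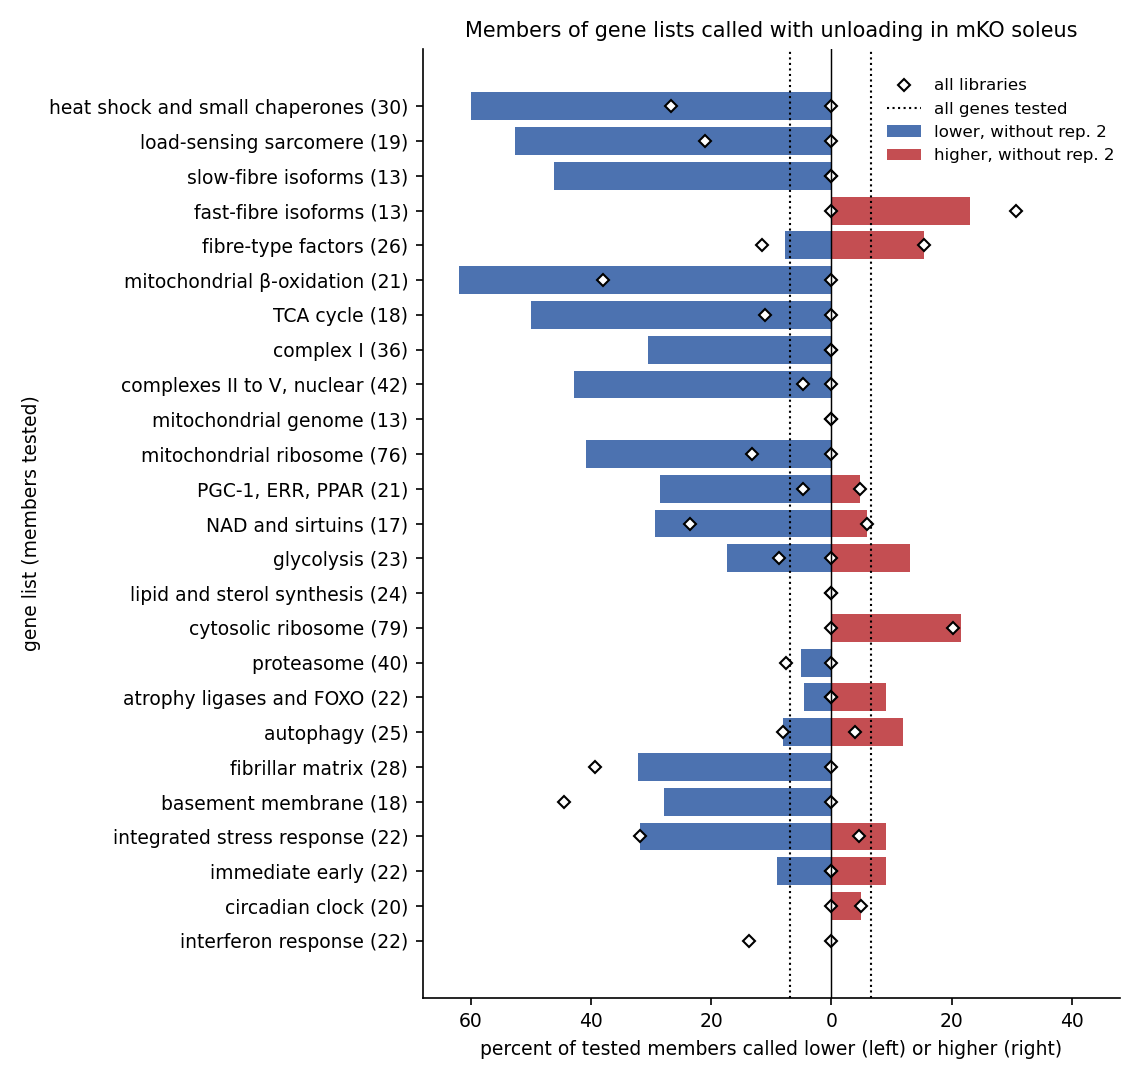
Percent of the tested members of each gene list that fell (left, blue) or rose (right, red) with unloading in mKO soleus without ambulatory replicate 2, with the number tested in brackets. Diamonds give the same with all libraries, and dotted lines mark the 6.82% lower and 6.67% higher over all genes tested; heat shock, load-sensing and mitochondrial lists extend to the left.

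The 12 largest falls among named genes called in both fits took in matrix, myosin and metabolic genes, and the 12 largest rises took in synaptic and channel genes. Bdh1, the mitochondrial enzyme that interconverts the ketone bodies hydroxybutyrate and acetoacetate, stood at 118 to 174 CPM (median 157) in the 6 ambulatory libraries and 8.98 to 34.3 CPM (median 16.7) in the 8 unloaded ones (log2 change -2.70 ± 0.26, adjusted p = 1.42e-07, and -2.44 with replicate 2). No unloaded library reached an ambulatory one other than replicate 2, which held 4.66 CPM. Tnfrsf12a, the receptor of the cytokine TWEAK, stood at 21.4 to 43.9 CPM (median 34.7) in the 6 ambulatory libraries and 2.44 to 13.3 CPM (median 4.5) in the 8 unloaded ones (log2 change -2.60 ± 0.42, adjusted p = 0.000186, and -2.34 with replicate 2). Its groups did not overlap without replicate 2, which held 3.66 CPM. Nmrk2, a muscle kinase that makes the NAD precursor nicotinamide mononucleotide from nicotinamide riboside, stood at 11.8 to 41.3 CPM (median 22.7) in the 6 ambulatory libraries and 0.232 to 6.63 CPM (median 2.79) in the 8 unloaded ones (log2 change -3.04 ± 0.60, adjusted p = 0.00144, and -2.79 with replicate 2). Every unloaded library was below every ambulatory one but replicate 2, at 0.679 CPM. Tecta, which encodes a matrix protein known from the inner ear, fell (log2 change -2.81 ± 0.30, adjusted p = 7.53e-07, and -2.52 with replicate 2). So did Timp1, a metalloprotease inhibitor (log2 change -2.90 ± 0.75, adjusted p = 0.0103, and -2.57 with replicate 2), but not in males alone (-2.42, adjusted p = 0.159).

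Among the rises, Sv2b, a synaptic vesicle glycoprotein, stood at 4.09 to 7.74 CPM (median 4.66) in the 6 ambulatory libraries and 5.61 to 87.7 CPM (median 29.6) in the 8 unloaded ones (log2 change 2.61 ± 0.46, adjusted p = 0.000503, and 2.91 with replicate 2). Its groups overlapped, with the lowest unloaded library inside the ambulatory range. Gabrr2, a subunit of ionotropic GABA receptors, stood at 0.385 to 1.69 CPM (median 1.13) in the 6 ambulatory libraries and 3.35 to 10.8 CPM (median 7.6) in the 8 unloaded ones (log2 change 2.72 ± 0.42, adjusted p = 9.51e-05, and 2.60 with replicate 2). Grik3, a kainate-type glutamate receptor subunit, stood at 0.128 to 0.79 CPM (median 0.364) in the 6 ambulatory libraries and 1.42 to 9.19 CPM (median 6.83) in the 8 unloaded ones and at 3.94 CPM in replicate 2 (log2 change 3.49 ± 0.46, adjusted p = 1.64e-05, and 2.58 with replicate 2). For both receptors every unloaded library lay above the 6 ambulatory ones, and for Grik3 replicate 2 lay inside the unloaded range. The other large rises were in genes of low level: Ccdc192 (log2 change 3.50 ± 0.52, adjusted p = 5.9e-05, and 3.48 with replicate 2), Nek10 (log2 change 2.99 ± 0.69, adjusted p = 0.0049, and 3.21 with replicate 2), the urate transporter gene Slc22a12 (log2 change 2.42 ± 0.55, adjusted p = 0.00407, and 2.69 with replicate 2), Stum (log2 change 2.26 ± 0.42, adjusted p = 0.000756, and 2.37 with replicate 2) and Crip3 (log2 change 2.23 ± 0.43, adjusted p = 0.000908, and 2.44 with replicate 2). In males alone Nek10 (2.73, adjusted p = 0.0758), Slc22a12 (2.02, adjusted p = 0.06155) and Crip3 (1.52, adjusted p = 0.068) did not pass. Odf3l2 also rose (log2 change 3.48 ± 1.11, adjusted p = 0.0371, and 3.11 with replicate 2), but without ambulatory replicate 4 its adjusted p was 0.0721, and in males alone its change was 2.36 (adjusted p = 0.313). Mylk3, a myosin light chain kinase known from heart, rose (log2 change 2.20 ± 0.47, adjusted p = 0.0025, and 2.51 with replicate 2).

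**Figure D3:**
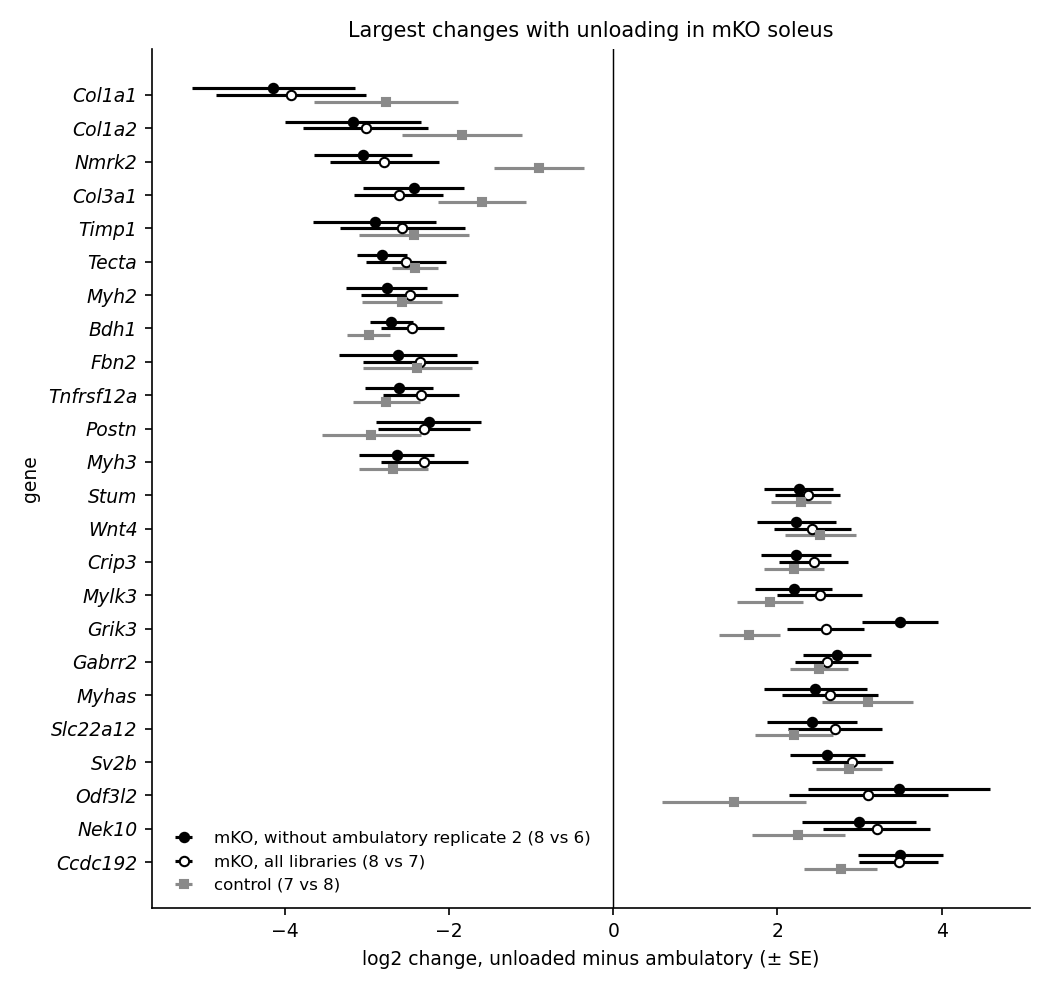
log2 change with unloading (unloaded minus ambulatory, ± SE) of the 12 largest falls and 12 largest rises among named genes, without ambulatory replicate 2 (filled), with all mKO libraries (open) and in control soleus (grey squares). Col1a1 lies at -4.14 ± 0.99 in mKO muscle, and Nmrk2 at -3.04 ± 0.60 against -0.91 ± 0.55 in control muscle.

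Among the myosin heavy chains, the oxidative fast isoform fell and a faster one rose. Myh2, the type IIa heavy chain, stood at 8406 to 13123 CPM (median 12170.1) in the 6 ambulatory libraries and 398 to 4152 CPM (median 1024) in the 8 unloaded ones (log2 change -2.76 ± 0.49, adjusted p = 0.000499, and -2.48 with replicate 2). The unloaded libraries lay apart from and below the 6 ambulatory ones, and the highest of them was replicate 7. Myh1, the type IIx chain, stood at 4172 to 10326 CPM (median 7796) in the 6 ambulatory libraries and 4151 to 40525 CPM (median 17568) in the 8 unloaded ones and rose (log2 change 1.53 ± 0.49, adjusted p = 0.0365, and 1.78 with replicate 2). Its groups overlapped, and its adjusted p was 0.0748 without ambulatory replicate 4 and 0.0685 in males alone. Myh4, the type IIb chain, stood at 19.7 to 2861 CPM (median 2163) in the 6 ambulatory libraries and 2676 to 18886 CPM (median 7087) in the 8 unloaded ones. Its change of 3.44 ± 1.37 did not pass (adjusted p = 0.0952, and 3.40 with replicate 2), while with the title letter as an added term it did (4.15, adjusted p = 0.0344). Myh7, the slow chain, stood at 6891 to 16581 CPM (median 11284) in the 6 ambulatory libraries and 4484 to 17888 CPM (median 6512) in the 8 unloaded ones and did not pass either (log2 change -0.71 ± 0.30, adjusted p = 0.118, and -0.41 with replicate 2). It was singled out after its values were seen, as the defining slow myosin. Myh3, the embryonic chain, fell (log2 change -2.64 ± 0.46, adjusted p = 0.000488, and -2.30 with replicate 2). Myhas, an RNA antisense to the fast myosin cluster, rose (log2 change 2.46 ± 0.63, adjusted p = 0.01, and 2.64 with replicate 2), but in males alone it did not pass (1.22, adjusted p = 0.228). These myosins share long stretches of sequence and the sources used here do not give the strand setting of the counting. Reads of one isoform, or of a myosin and its antisense RNA, could be split between genes.

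Among other contractile isoforms, some slow ones fell and some fast ones rose. Of 13 slow-fibre isoform genes, 0 rose, 6 fell and 7 did not pass, with a median log2 change of -0.71. With all libraries edgeR called 0, while 3 had an unadjusted p under 0.05 (27.3% of all genes), DESeq2 called 1 (13%) and limma-voom 5 (14.3%). Those that fell included Casq2, the slow calsequestrin (log2 change -1.07 ± 0.19, adjusted p = 0.000384, and -0.78 with replicate 2, which did not pass), and Myl3, the slow essential myosin light chain (log2 change -1.33 ± 0.24, adjusted p = 0.000524, and -1.04 with replicate 2, which did not pass). Slow troponin I, Tnni1, fell too (log2 change -1.16 ± 0.27, adjusted p = 0.0051, and -0.86 with replicate 2, which did not pass). So did the light chain gene Myl6b (log2 change -1.89 ± 0.51, adjusted p = 0.0144, and -1.53 with replicate 2, which did not pass), with an adjusted p of 0.0511 without ambulatory replicate 4. Of 13 fast-fibre isoform genes 3 rose, 0 fell and 10 did not pass, with a median of 0.69. With all libraries 4 rose and 0 fell of 13. Without ambulatory replicate 4 the count that rose was 1, beside 874 of 17313 genes higher in that fit. Mylk2, the skeletal myosin light chain kinase, rose (log2 change 0.89 ± 0.20, adjusted p = 0.0037, and 1.13 with replicate 2). Actn3, the alpha-actinin of fast fibres, rose (log2 change 1.90 ± 0.60, adjusted p = 0.0351, and 2.08 with replicate 2), with an adjusted p of 0.0722 without ambulatory replicate 4. Pvalb, the calcium buffer parvalbumin of fast fibres, had a change of 1.13 ± 0.42 (adjusted p = 0.0731, and 1.31 with replicate 2, which passed). Summed slow isoforms ran over 19945 to 40922 CPM in the 6 ambulatory libraries, 531 in replicate 2 and 12139 to 38435 in the unloaded ones, and summed fast isoforms over 24449 to 36095 CPM in the 6 ambulatory libraries, 3411 in replicate 2 and 21855 to 105807 in the unloaded ones. Among 9 markers shared by all fibre types, 1 rose, 0 fell and 8 did not pass (0 rose and 0 fell of 9 with all libraries), the 1 being dystrophin, Dmd (log2 change 0.45 ± 0.15, adjusted p = 0.047, and 0.70 with replicate 2, which did not pass). Without ambulatory replicate 4 the adjusted p of Dmd was 0.111.

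**Figure D4:**
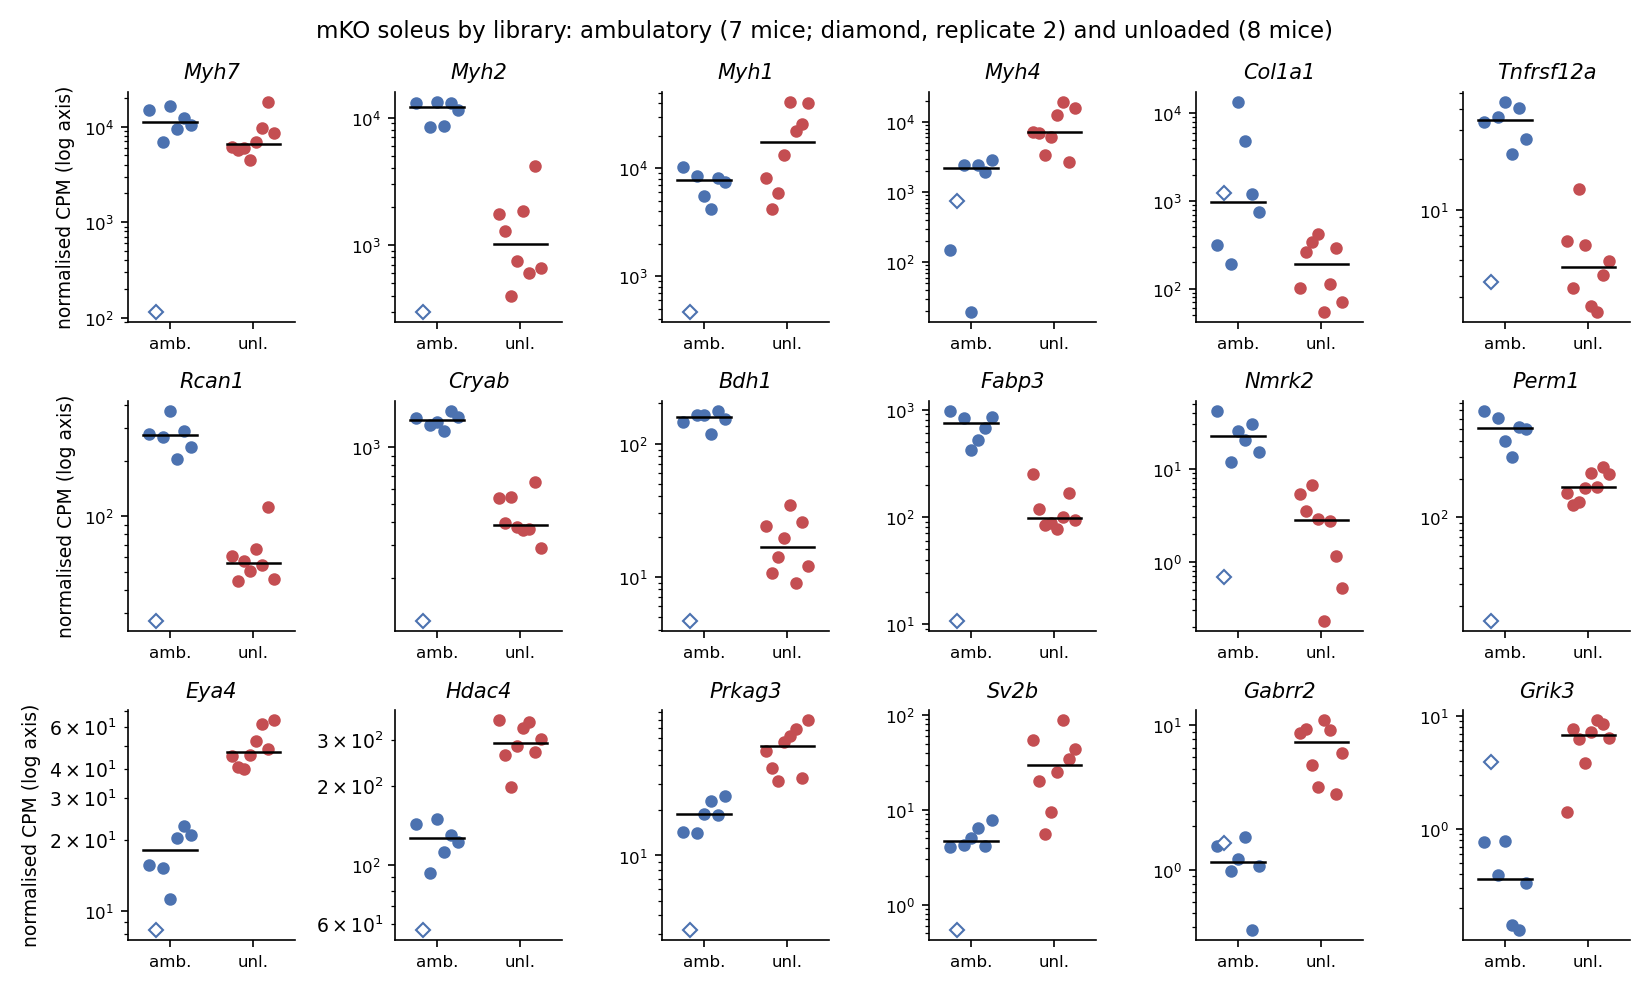
CPM of 18 genes in each mKO library (log axes), ambulatory in blue and unloaded in red, with ambulatory replicate 2 as an open diamond and bars at the medians without it. Bdh1, Fabp3, Rcan1, Cryab and Nmrk2 have no overlap between unloaded and the 6 filled ambulatory libraries, while Col1a1, Myh1 and Myh7 overlap.

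Some transcription factors tied to fibre type passed, in both directions. Of 26 such genes 4 rose, 2 fell and 20 did not pass (4 rose and 3 fell of 26 with all libraries). Eya4, a coactivator and phosphatase, stood at 11.2 to 23 CPM (median 18.1) in the 6 ambulatory libraries and 39.8 to 64.1 CPM (median 47) in the 8 unloaded ones (log2 change 1.46 ± 0.18, adjusted p = 6.53e-06, and 1.61 with replicate 2). Hdac4, a histone deacetylase that represses slow-fibre and activity-dependent genes, stood at 94 to 151 CPM (median 127) in the 6 ambulatory libraries and 199 to 355 CPM (median 293) in the 8 unloaded ones (log2 change 1.33 ± 0.19, adjusted p = 4.84e-05, and 1.45 with replicate 2). For both genes each unloaded library lay above each ambulatory one, replicate 2 included. Maf, a factor of the large Maf family, rose (log2 change 1.09 ± 0.19, adjusted p = 0.000277, and 0.87 with replicate 2). Vgll2, a TEAD cofactor, fell (log2 change -1.88 ± 0.28, adjusted p = 6.04e-05, and -1.62 with replicate 2). Mafa, another large Maf factor, which was singled out after its values were seen, rose (log2 change 1.72 ± 0.52, adjusted p = 0.0283, and 1.998 with replicate 2).

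Genes of load sensing in the sarcomere and of calcineurin signalling were among those that fell. Of 19 load-sensing genes, among them muscle ankyrin repeat, LIM and Xin proteins, 0 rose, 10 fell and 9 did not pass, with a median of -0.73 (0 rose and 4 fell of 19 with all libraries). Ankrd2, an ankyrin repeat protein bound to titin, stood at 325 to 576 CPM (median 462) in the 6 ambulatory libraries and 79.5 to 216 CPM (median 123) in the 8 unloaded ones (log2 change -1.62 ± 0.29, adjusted p = 0.000451, and -1.32 with replicate 2), and the groups did not overlap. Its relative Ankrd23 fell (log2 change -1.27 ± 0.19, adjusted p = 6.04e-05, and -1.04 with replicate 2). So did Xirp1, an actin-binding Xin repeat protein (log2 change -1.71 ± 0.25, adjusted p = 3.89e-05, and -1.42 with replicate 2). Lmcd1, a LIM protein, fell (log2 change -1.09 ± 0.17, adjusted p = 0.000136, and -0.82 with replicate 2, which did not pass). Rcan1, a modulator of calcineurin whose transcription calcineurin itself drives, stood at 205 to 371 CPM (median 275) in the 6 ambulatory libraries and 44.2 to 113 CPM (median 55.6) in the 8 unloaded ones and at 27.1 CPM in replicate 2 (log2 change -2.12 ± 0.21, adjusted p = 2.09e-07, and -1.85 with replicate 2). Each unloaded library lay below the 6 ambulatory ones, and unloaded replicate 7 was the highest of the 8. Of the 15 calcineurin and NFAT genes 0 rose, 3 fell and 12 did not pass (0 rose and 1 fell of 15 with all libraries), the others being Rcan2 (log2 change -0.61 ± 0.18, adjusted p = 0.0241, and -0.35 with replicate 2, which did not pass) and the calcineurin-binding calsarcin Myoz2 (log2 change -0.74 ± 0.21, adjusted p = 0.0201, and -0.46 with replicate 2, which did not pass). Of 16 calcium-handling genes 2 rose, 0 fell and 14 did not pass (2 rose and 1 fell of 16 with all libraries), among them Cacng1, the gamma subunit of the muscle calcium channel, which rose (log2 change 0.82 ± 0.21, adjusted p = 0.00941, and 1.07 with replicate 2).

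Many heat shock genes fell. These chaperones hold unfolded proteins, and the small ones protect the Z-disc and desmin in working muscle. Of 30 heat shock proteins, co-chaperones and small chaperones, 0 rose, 18 fell and 12 did not pass, with a median of -0.56, beside 6.82% lower over all genes tested. With all libraries 0 rose and 8 fell of 30. Cryab, the abundant small chaperone alphaB-crystallin, stood at 1219 to 1555 CPM (median 1401) in the 6 ambulatory libraries and 288 to 650.3 CPM (median 383) in the 8 unloaded ones and at 118 CPM in replicate 2 (log2 change -1.58 ± 0.22, adjusted p = 2.67e-05, and -1.31 with replicate 2). No unloaded library came near the 6 ambulatory ones. Hspa1l (log2 change -1.60 ± 0.18, adjusted p = 1.63e-06, and -1.32 with replicate 2) and Hspa1b (log2 change -1.95 ± 0.30, adjusted p = 0.000119, and -1.69 with replicate 2), both of the HSP70 family, fell, as did the co-chaperone Hsph1 (log2 change -0.99 ± 0.16, adjusted p = 0.000149, and -0.80 with replicate 2). Hspa1b has a near-identical copy, Hspa1a, and reads could be split between them.

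Heat shock factors bind inverted repeats of the letters GAA, so the RefSeq promoter table (build GRCm38.p6, 250 bases before to 50 after each start) was searched for 3 adjoining units: GAA, any 2 bases, TTC, any 2 bases, GAA, or the reverse complement of these, which covers both strands. A promoter was listed for 23 list members, of which 4 held it, and of the 14 of these that fell 2 did, Hsph1 and Hspd1. Of all 27025 genes with a listed promoter 179 (0.662%) held it. The stretch shared by the divergent genes Hspd1 and Hspe1, which encode the mitochondrial chaperonins HSP60 and HSP10, is shown because Hspd1 fell and its neighbour did not pass. It is written on the minus strand, in the direction of Hspd1, at chr1:55088029-55088106, with 2 overlapping matches in capitals, the first of which begins 144 bases before the start of Hspd1:
Hspd1 promoter: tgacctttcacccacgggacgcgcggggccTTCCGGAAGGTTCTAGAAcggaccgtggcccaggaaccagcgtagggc
Hspd1 stood at 94.9 to 146 CPM (median 127) in the 6 ambulatory libraries and 65 to 113 CPM (median 79.8) in the 8 unloaded ones (log2 change -0.54 ± 0.14, adjusted p = 0.0085, and -0.44 with replicate 2, which did not pass). Hspe1 had a change of -0.14 ± 0.16 (adjusted p = 0.597, and 0.015 with replicate 2). Both were named after their values and sequences were seen. A match describes letters in this window and shows no binding.

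Many genes of fat and ketone use fell. Of 21 genes of the carnitine shuttle and mitochondrial beta-oxidation, 0 rose, 13 fell and 8 did not pass, with a median of -0.63. With all libraries 0 rose and 8 fell of 21. Fabp3, the fatty acid carrier of heart and slow muscle, stood at 419.6 to 959.5 CPM (median 747) in the 6 ambulatory libraries and 77.3 to 253 CPM (median 96.8) in the 8 unloaded ones and at 10.8 CPM in replicate 2 (log2 change -2.49 ± 0.33, adjusted p = 2.13e-05, and -2.22 with replicate 2). The highest unloaded library was below the lowest of the 6. Acaa2, the last thiolase of the spiral, fell (log2 change -1.21 ± 0.18, adjusted p = 4.86e-05, and -1.02 with replicate 2). So did the isomerase Eci1 (log2 change -0.98 ± 0.16, adjusted p = 0.000188, and -0.82 with replicate 2). Both subunits of the trifunctional protein fell, Hadha (log2 change -0.95 ± 0.17, adjusted p = 0.00042, and -0.74 with replicate 2) and Hadhb (log2 change -0.99 ± 0.18, adjusted p = 0.000473, and -0.78 with replicate 2). Besides Bdh1, the ketone enzyme Oxct1 fell (log2 change -1.33 ± 0.17, adjusted p = 1.42e-05, and -1.12 with replicate 2), and of 6 genes of ketone use 0 rose, 3 fell and 3 did not pass (0 rose and 2 fell of 6 with all libraries). Of 20 genes of fatty acid uptake, activation and storage 2 rose, 3 fell and 15 did not pass (3 rose and 3 fell of 20 with all libraries). Acsl6, an acyl-CoA synthetase, rose (log2 change 1.46 ± 0.33, adjusted p = 0.00424, and 1.73 with replicate 2), and the lipid droplet protein Plin5 fell (log2 change -1.11 ± 0.32, adjusted p = 0.021, and -0.87 with replicate 2, which did not pass), with an adjusted p of 0.0594 without ambulatory replicate 4.

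Many nuclear genes for the tricarboxylic acid cycle, the respiratory chain and the mitochondrial ribosome fell, and those of the mitochondrial genome did not pass. Of 18 cycle genes 0 rose, 9 fell and 9 did not pass, with a median of -0.52 (0 rose and 2 fell of 18 with all libraries). Idh2, the mitochondrial NADP-dependent isocitrate dehydrogenase, stood at 741 to 1367 CPM (median 1039.8) in the 6 ambulatory libraries and 294 to 677 CPM (median 330.1) in the 8 unloaded ones (log2 change -1.38 ± 0.22, adjusted p = 0.000125, and -1.12 with replicate 2), without overlap. Sdhc, a succinate dehydrogenase subunit (log2 change -0.83 ± 0.17, adjusted p = 0.00174, and -0.63 with replicate 2, which did not pass), and Dlst, of the oxoglutarate dehydrogenase complex (log2 change -0.80 ± 0.17, adjusted p = 0.00177, and -0.65 with replicate 2), fell. Of 36 complex I subunits 0 rose, 11 fell and 25 did not pass, with a median of -0.40. With all libraries edgeR called 0 of them, while 8 had an unadjusted p under 0.05 (27.3% of all genes), DESeq2 called 2 (13%) and limma-voom 8 (14.3%). Ndufa11 was the subunit with the smallest p (log2 change -0.70 ± 0.14, adjusted p = 0.00148, and -0.51 with replicate 2, which did not pass). Of 42 nuclear subunits of the other complexes and cytochrome c, 0 rose, 18 fell and 24 did not pass, with a median of -0.49 (0 rose and 2 fell of 42 with all libraries). Cytochrome c, Cycs, fell (log2 change -0.92 ± 0.17, adjusted p = 0.00071, and -0.73 with replicate 2). So did the ATP synthase subunit gene Atp5g3 (log2 change -0.85 ± 0.16, adjusted p = 0.00106, and -0.68 with replicate 2) and the muscle isoform Cox7a1 (log2 change -1.01 ± 0.20, adjusted p = 0.00125, and -0.75 with replicate 2, which did not pass). Of 76 mitochondrial ribosomal protein genes 0 rose, 31 fell and 45 did not pass (0 rose and 10 fell of 76 with all libraries), among them Mrpl19 (log2 change -0.84 ± 0.13, adjusted p = 0.000107, and -0.65 with replicate 2), Mrpl12 (log2 change -0.86 ± 0.16, adjusted p = 0.000621, and -0.68 with replicate 2) and Mrpl34 (log2 change -0.96 ± 0.18, adjusted p = 0.000907, and -0.78 with replicate 2). Of the 13 protein genes of the mitochondrial genome 0 passed by edgeR, with a median of -0.0048. Of these 1 had an unadjusted p under 0.05 (28.7% of all genes), DESeq2 called 1 (14.9%) and limma-voom 1 (16%). The smallest p was that of mt-Nd6, which had a change of -0.97 ± 0.34 (adjusted p = 0.0522, and -0.78 with replicate 2). Reads of mitochondrial genes made up 1.01% of the counts in ambulatory replicate 4, 4.667% to 7.192% in the other 5 and 3.387% to 5.873% in the unloaded libraries.

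Regulators of these genes fell in part. Of 21 PGC-1, ERR, PPAR and mitochondrial transcription factor genes 1 rose, 6 fell and 14 did not pass (1 rose and 1 fell of 21 with all libraries). Perm1, a muscle regulator downstream of PGC-1 and ERR, stood at 299.6 to 685 CPM (median 506) in the 6 ambulatory libraries and 125 to 249 CPM (median 173) in the 8 unloaded ones (log2 change -1.40 ± 0.20, adjusted p = 3.89e-05, and -1.14 with replicate 2). The groups did not overlap without replicate 2, at 15.3 CPM. The nuclear receptors Esrrg (log2 change -1.08 ± 0.21, adjusted p = 0.00111, and -0.81 with replicate 2, which did not pass), Ppara (log2 change -1.02 ± 0.20, adjusted p = 0.00134, and -0.76 with replicate 2, which did not pass) and Esrra (log2 change -0.98 ± 0.20, adjusted p = 0.00182, and -0.76 with replicate 2, which did not pass) fell without replicate 2 and did not pass with it. Of 17 PPAR-responsive fuel genes 0 rose, 6 fell and 11 did not pass (0 rose and 3 fell of 17 with all libraries).

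Among energy buffering genes, the mitochondrial creatine kinase Ckmt2 fell (log2 change -1.72 ± 0.20, adjusted p = 3.49e-06, and -1.44 with replicate 2). So did the creatine transporter Slc6a8 (log2 change -1.15 ± 0.16, adjusted p = 3.81e-05, and -0.92 with replicate 2). Of 17 creatine and adenine nucleotide genes 1 rose, 3 fell and 13 did not pass (0 rose and 2 fell of 17 with all libraries). In the NAD list, where 1 rose, 5 fell and 11 did not pass of 17 (1 rose and 4 fell of 17 with all libraries), the mitochondrial deacylases Sirt3 (log2 change -0.89 ± 0.13, adjusted p = 3.35e-05, and -0.79 with replicate 2) and Sirt5 (log2 change -0.77 ± 0.14, adjusted p = 0.000827, and -0.65 with replicate 2) fell with Nmrk2. Of 14 AMPK subunit and upstream kinase genes 2 rose, 1 fell and 11 did not pass (1 rose and 0 fell of 14 with all libraries). Prkag3, the gamma subunit known from fast glycolytic fibres, stood at 14.1 to 24.7 CPM (median 18.8) in the 6 ambulatory libraries and 31.1 to 79 CPM (median 53.2) in the 8 unloaded ones (log2 change 1.65 ± 0.27, adjusted p = 0.00017, and 1.88 with replicate 2). Each unloaded library lay above each ambulatory one, replicate 2 included, at 3.21 CPM. The scaffold genes of the upstream kinase LKB1 moved apart: Cab39 fell (log2 change -0.48 ± 0.16, adjusted p = 0.0449, and -0.28 with replicate 2, which did not pass) and Cab39l rose (log2 change 0.43 ± 0.13, adjusted p = 0.0212, and 0.27 with replicate 2, which did not pass), and neither passed without ambulatory replicate 4 (adjusted p = 0.0637 and 0.0515).

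Glucose genes showed no common direction. Of 23 glycolytic genes 3 rose, 4 fell and 16 did not pass, with a median of -0.046 (0 rose and 2 fell of 23 with all libraries). Without ambulatory replicate 4, 1 rose and 2 fell, beside 874 higher and 959 lower of 17313 genes in that fit. Pfkfb3, which makes the activator of phosphofructokinase, stood at 45 CPM as the median of 6 ambulatory and 177 of 8 unloaded libraries, and at 416 CPM in replicate 2 (log2 change 1.66 ± 0.40, adjusted p = 0.00634, and 0.69 with replicate 2, which did not pass). Gpd1, the glycerol phosphate dehydrogenase, rose (log2 change 1.17 ± 0.34, adjusted p = 0.0235, and 0.69 with replicate 2, which did not pass), with an adjusted p of 0.0552 without ambulatory replicate 4. Ldhb, the lactate dehydrogenase subunit of oxidative muscle, fell (log2 change -0.74 ± 0.19, adjusted p = 0.0102, and -0.48 with replicate 2, which did not pass). So did the mutase Pgam1 (log2 change -0.69 ± 0.16, adjusted p = 0.00487, and -0.92 with replicate 2), of which other genomic copies are known. Of 18 glycogen genes 1 rose, 2 fell and 15 did not pass (1 rose and 0 fell of 18 with all libraries), among them Phkg1, the muscle phosphorylase kinase, which rose (log2 change 1.16 ± 0.18, adjusted p = 0.000119, and 1.39 with replicate 2), and Ugp2, which makes UDP-glucose and fell (log2 change -0.90 ± 0.19, adjusted p = 0.0025, and -0.65 with replicate 2, which did not pass). Of 12 glucose uptake genes 0 rose, 1 fell and 11 did not pass (0 rose and 1 fell of 12 with all libraries), the 1 being the carbohydrate-responsive factor Mlxipl (log2 change -0.67 ± 0.12, adjusted p = 0.000702, and -0.62 with replicate 2). Of 24 lipid and sterol synthesis genes 0 passed in edgeR in either fit. Without replicate 2, 4 had an unadjusted p under 0.05 (28.7% of all genes), DESeq2 called 1 (14.9%) and limma-voom 1 (16%).

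Some matrix genes fell, and how many did so depended on which libraries were in the fit. Of 28 fibrillar matrix genes 0 rose, 9 fell and 19 did not pass, with a median of -0.91 (0 rose and 11 fell of 28 with all libraries). Col1a1, the alpha1 chain of type I collagen, stood at 192 to 13334 CPM (median 978) in the 6 ambulatory libraries and 54.8 to 424 CPM (median 189) in the 8 unloaded ones and at 1232 CPM in replicate 2 (log2 change -4.14 ± 0.99, adjusted p = 0.00664, and -3.92 with replicate 2). The groups overlapped, and ambulatory replicate 4 held the highest value. Without replicate 4 the change was -2.94 (adjusted p = 0.0326), and in males alone -4.38 (adjusted p = 0.116). Col3a1, the chain of type III collagen, stood at 246 to 3280.2 CPM (median 538) in the 6 ambulatory libraries and 80.0 to 414 CPM (median 227) in the 8 unloaded ones (log2 change -2.43 ± 0.62, adjusted p = 0.00964, and -2.61 with replicate 2), and without replicate 4 its change was -1.67 (adjusted p = 0.0481). Col1a2, the other type I chain, fell (log2 change -3.17 ± 0.83, adjusted p = 0.0119, and -3.01 with replicate 2), but not without replicate 4 (-2.17, adjusted p = 0.0617). Periostin, Postn, fell (log2 change -2.24 ± 0.64, adjusted p = 0.0207, and -2.30 with replicate 2), and fibrillin gene Fbn2 fell (log2 change -2.62 ± 0.72, adjusted p = 0.0162, and -2.35 with replicate 2) with an adjusted p of 0.0587 without replicate 4. In males alone Col1a2 (-3.25, adjusted p = 0.154), Postn (-2.45, adjusted p = 0.159) and Fbn2 (-2.59, adjusted p = 0.195) did not pass. The count of fibrillar genes that fell was 3 without replicate 4, beside 5.54% of all genes lower in that fit. It was 2 in males alone, beside 2.35%, and 0 when the 2 mKO groups were fitted alone, beside 5.35%.

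Basement membrane genes and matrix proteases also gave other counts with other libraries in the fit. Of 18 basement membrane and collagen VI genes 0 rose, 5 fell and 13 did not pass (0 rose and 8 fell of 18 with all libraries). Without ambulatory replicate 4, 1 fell, beside 5.54% of all genes lower in that fit. Without unloaded replicates 2 and 3, 10 fell, beside 1197 of 16922 genes lower in that fit. The 5 included Col4a5 (log2 change -1.20 ± 0.29, adjusted p = 0.00561, and -1.26 with replicate 2), Col6a2 (log2 change -1.49 ± 0.45, adjusted p = 0.0273, and -1.58 with replicate 2) and Col15a1 (log2 change -1.13 ± 0.35, adjusted p = 0.0315, and -1.51 with replicate 2). Without replicate 4 the adjusted p was 0.0957 for Col6a2 and 0.12 for Col15a1. Of 18 ADAMTS, TIMP and MMP genes 0 rose, 5 fell and 13 did not pass (0 rose and 4 fell of 18 with all libraries). Without ambulatory replicate 4, 3 fell, beside the 5.54% of all genes lower in that fit. Papln, which encodes papilin, a protein related to ADAMTS proteases, fell (log2 change -2.02 ± 0.33, adjusted p = 0.000186, and -2.04 with replicate 2). Adamts1 stood at 41.1 to 55.2 CPM (median 43.4) in the 6 ambulatory libraries and 13.4 to 33.4 CPM (median 21) in the 8 unloaded ones (log2 change -0.97 ± 0.19, adjusted p = 0.00121, and -0.86 with replicate 2), without overlap. Adamts8 fell (log2 change -2.37 ± 0.67, adjusted p = 0.0202, and -2.07 with replicate 2, which did not pass), with an adjusted p of 0.0628 without replicate 4.

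Markers of tendon and stromal cells were set beside the matrix genes. Of 8 tenocyte markers 0 rose, 1 fell and 7 did not pass (0 rose and 1 fell of 8 with all libraries) and all 8 had lower values, with a median of -1.21, and their sum ran over 94.7 to 2873 CPM in the 6 ambulatory libraries, 60.1 in replicate 2 and 108 to 1441 in the unloaded ones. Scx, the tendon transcription factor, stood at 9.39 to 57.7 CPM (median 19.6) in the 6 ambulatory libraries and 2.47 to 10.5 CPM (median 5.62) in the 8 unloaded ones and fell (log2 change -1.92 ± 0.36, adjusted p = 0.000922, and -1.61 with replicate 2), its highest value being in ambulatory replicate 4. Of 10 markers of fibro-adipogenic progenitors, the matrix-making stromal cells of muscle, 0 rose, 0 fell and 10 did not pass (0 rose and 1 fell of 10 with all libraries). Without replicate 2, 1 had an unadjusted p under 0.05 (28.7% of all genes), DESeq2 called 0 (14.9%) and limma-voom 0 (16%). Their sum ran over 1139 to 2371 CPM in the 6 ambulatory libraries, 8268 in replicate 2 and 1248 to 2873 in the unloaded ones. The part of either cell type in the matrix result was not tested. Of 12 endothelial markers 0 rose, 1 fell and 11 did not pass (0 rose and 1 fell of 12 with all libraries), the 1 being the VEGF receptor gene Kdr (log2 change -0.89 ± 0.18, adjusted p = 0.00122, and -0.85 with replicate 2). Of 14 macrophage markers 0 rose, 1 fell and 13 did not pass (0 rose and 0 fell of 14 with all libraries), the 1 being the chemokine receptor gene Cx3cr1 (log2 change -2.04 ± 0.69, adjusted p = 0.0476, and -1.89 with replicate 2, which did not pass), with an adjusted p of 0.111 without ambulatory replicate 4. Adipocyte (10), satellite cell (7) and erythroid (5) markers held 0 calls in edgeR without replicate 2, with 1, 1 and 0 of them at an unadjusted p under 0.05. With all libraries edgeR called 1 satellite cell marker lower. Without replicate 2, DESeq2 and limma-voom each called 1 satellite cell marker and no adipocyte or erythroid one. Of 9 pericyte and smooth muscle markers 0 rose, 1 fell and 8 did not pass (0 rose and 0 fell of 9 with all libraries). Of 9 lymphocyte and neutrophil markers 2 had enough reads to be tested. The 8 Schwann cell markers tested had a median of 2.43 and 0 passed in edgeR, while 4 had an unadjusted p under 0.05 (28.7% of all genes), DESeq2 called 4 (14.9%) and limma-voom 0 (16%). Without unloaded replicates 2 and 3 the Schwann cell median was 0.80.

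Genes of protein breakdown were read against the 6.67% higher and 6.82% lower over all genes. Of 22 atrophy ubiquitin ligase and FOXO genes 2 rose, 1 fell and 19 did not pass. With all libraries edgeR called 0, while 6 had an unadjusted p under 0.05 (27.3% of all genes), DESeq2 called 1 (13%) and limma-voom 5 (14.3%). Cblb, a ligase of insulin receptor substrates, rose (log2 change 0.62 ± 0.17, adjusted p = 0.0168, and 0.42 with replicate 2, which did not pass). So did Foxo1 (log2 change 0.95 ± 0.28, adjusted p = 0.0235, and 0.56 with replicate 2, which did not pass). The muscle ligase genes Trim63 and Fbxo32, singled out as the best known members, did not pass, at -0.066 ± 0.32 (adjusted p = 0.92, and 0.18 with replicate 2) and 0.46 ± 0.27 (adjusted p = 0.265, and 0.72). Of 40 proteasome genes 0 rose, 2 fell and 38 did not pass (0 rose and 3 fell of 40 with all libraries), among them Psmd9 (log2 change -0.34 ± 0.11, adjusted p = 0.0297, and -0.31 with replicate 2), whose adjusted p was 0.0795 without ambulatory replicate 4. Of 25 autophagy genes 3 rose, 2 fell and 20 did not pass (1 rose and 2 fell of 25 with all libraries), among them Gabarapl1 (log2 change -1.002 ± 0.16, adjusted p = 0.000186, and -0.93 with replicate 2) and Wipi1 (log2 change -0.66 ± 0.13, adjusted p = 0.00156, and -0.53 with replicate 2), which fell. Of 11 cathepsins 1 rose, 2 fell and 8 did not pass (0 rose and 2 fell of 11 with all libraries). Ctsl rose (log2 change 0.69 ± 0.15, adjusted p = 0.00209, and 0.48 with replicate 2, which did not pass) and Ctsd fell (log2 change -0.52 ± 0.12, adjusted p = 0.00371, and -0.52 with replicate 2).

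Genes of growth control and the cytosolic ribosome moved as follows. Of 79 cytosolic ribosomal protein genes 17 rose, 0 fell and 62 did not pass, with a median of 0.28. With all libraries 16 rose and 0 fell of 79, beside 5.3% higher over all genes. Rps27 stood at 35.1 to 81.6 CPM (median 72.5) in the 6 ambulatory libraries and 87.4 to 190.1 CPM (median 126) in the 8 unloaded ones (log2 change 0.94 ± 0.21, adjusted p = 0.00358, and 0.94 with replicate 2), without overlap. Rps25 (log2 change 0.82 ± 0.19, adjusted p = 0.00557, and 0.88 with replicate 2), Rpl32 (log2 change 0.60 ± 0.13, adjusted p = 0.0031, and 0.56 with replicate 2) and Rpl21 (log2 change 0.75 ± 0.17, adjusted p = 0.00452, and 0.76 with replicate 2) rose too. Genes of this family have many processed copies, between which reads can be split. H19, the imprinted RNA beside Igf2, stood at 1007 to 1988 CPM (median 1409) in the 6 ambulatory libraries and 158 to 694 CPM (median 350.5) in the 8 unloaded ones (log2 change -2.23 ± 0.28, adjusted p = 5.57e-06, and -1.94 with replicate 2), without overlap. Of 14 IGF and insulin pathway genes 1 rose, 3 fell and 10 did not pass (1 rose and 3 fell of 14 with all libraries), among them Irs1, an insulin receptor substrate, which fell (log2 change -0.73 ± 0.19, adjusted p = 0.00922, and -0.64 with replicate 2). Igf1, singled out as the ligand, stood at -0.032 ± 0.40 (adjusted p = 0.97, and -0.68 with replicate 2). Ddit4l, a brake on mTORC1 known from muscle, rose (log2 change 1.74 ± 0.39, adjusted p = 0.00398, and 2.01 with replicate 2). So did Castor2, a paralogue of the arginine sensor of mTORC1 (log2 change 1.19 ± 0.37, adjusted p = 0.0336, and 1.42 with replicate 2), whose adjusted p was 0.0663 without ambulatory replicate 4. Sesn3, a sestrin that also restrains mTORC1, fell (log2 change -0.56 ± 0.12, adjusted p = 0.00179, and -0.51 with replicate 2). Of 19 myostatin and activin genes 2 rose, 2 fell and 15 did not pass (3 rose and 2 fell of 19 with all libraries), among them the receptor genes Tgfbr1 (log2 change 0.60 ± 0.12, adjusted p = 0.00178, and 0.69 with replicate 2) and Acvr1b (log2 change 0.96 ± 0.24, adjusted p = 0.00721, and 0.93 with replicate 2). Mstn itself, singled out as the ligand, stood at 0.59 ± 0.55 (adjusted p = 0.513, and 0.76 with replicate 2).

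Some genes of the p53 family and of the TWEAK pathway passed. Trp63, a p53 relative, stood at 2.53 to 10.4 CPM (median 6.94) in the 6 ambulatory libraries and 20.6 to 32.3 CPM (median 25.7) in the 8 unloaded ones (log2 change 2.03 ± 0.28, adjusted p = 2.67e-05, and 2.17 with replicate 2), and every unloaded library lay above every ambulatory one. Rb1, the retinoblastoma protein that holds back the cell cycle, rose (log2 change 0.73 ± 0.14, adjusted p = 0.00087, and 0.59 with replicate 2), and Phlda3, a p53 target that restrains AKT, fell (log2 change -1.32 ± 0.25, adjusted p = 0.000907, and -1.14 with replicate 2). Of 20 genes of this list 3 rose, 3 fell and 14 did not pass (3 rose and 1 fell of 20 with all libraries). Traf3, an inhibitor of the alternative NF-kB pathway, fell with the TWEAK receptor (log2 change -1.13 ± 0.19, adjusted p = 0.00021, and -0.92 with replicate 2), and of 16 TWEAK and NF-kB genes 0 rose, 4 fell and 12 did not pass (0 rose and 2 fell of 16 with all libraries).

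Some junction and synaptic genes passed in both directions. Of 16 neuromuscular junction genes 3 rose, 1 fell and 12 did not pass, with a median of 0.48 (4 rose and 0 fell of 16 with all libraries). The acetylcholine receptor subunit gene Chrnb1 rose (log2 change 0.81 ± 0.17, adjusted p = 0.00195, and 1.04 with replicate 2). So did acetylcholinesterase, Ache (log2 change 1.43 ± 0.43, adjusted p = 0.0254, and 1.68 with replicate 2), and the junction kinase gene Musk (log2 change 0.78 ± 0.26, adjusted p = 0.0412, and 1.07 with replicate 2, which did not pass), while Colq, the collagen tail of the esterase, fell (log2 change -1.19 ± 0.30, adjusted p = 0.00964, and -0.90 with replicate 2, which did not pass). The adjusted p of Musk was 0.0874 without ambulatory replicate 4. Of 12 synaptic vesicle and GABA genes 4 rose, 2 fell and 6 did not pass (4 rose and 2 fell of 12 with all libraries), with Unc13b rising (log2 change 0.80 ± 0.098, adjusted p = 5.57e-06, and 0.75 with replicate 2) and its relative Unc13d falling (log2 change -2.28 ± 0.31, adjusted p = 2.27e-05, and -2.13 with replicate 2). Of 20 potassium channel genes 1 rose and 1 fell, which is no more than the 6.67% and 6.82% over all genes. Kcnn2, a small-conductance calcium-activated channel, rose (log2 change 1.14 ± 0.23, adjusted p = 0.0015, and 1.38 with replicate 2), and Kcna7, a voltage-gated channel of muscle and heart, fell (log2 change -1.28 ± 0.31, adjusted p = 0.00633, and -0.99 with replicate 2, which did not pass). Wnt4, a Wnt ligand, rose (log2 change 2.23 ± 0.48, adjusted p = 0.0029, and 2.42 with replicate 2), and of 20 Wnt genes 2 rose, 3 fell and 15 did not pass (2 rose and 3 fell of 20 with all libraries).

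Some stress response genes passed, and several of the counts lie near the 6.67% higher and 6.82% lower over all genes tested. Of 22 genes of the integrated stress and unfolded protein responses 2 rose, 7 fell and 13 did not pass, with a median of -0.37 (1 rose and 7 fell of 22 with all libraries). Lower values were found for 18 of the 22. Atf5, a factor of the mitochondrial stress response, fell (log2 change -1.16 ± 0.18, adjusted p = 0.000137, and -1.12 with replicate 2). So did Mthfd2, of mitochondrial folate metabolism (log2 change -1.23 ± 0.26, adjusted p = 0.00211, and -1.16 with replicate 2), and the endoplasmic reticulum chaperone Hspa5 (log2 change -0.72 ± 0.18, adjusted p = 0.00813, and -0.67 with replicate 2). Of 28 NRF2 and antioxidant genes 4 rose, 2 fell and 22 did not pass (3 rose and 4 fell of 28 with all libraries), with Srxn1 lower (log2 change -0.93 ± 0.14, adjusted p = 4.66e-05, and -0.77 with replicate 2) and Gclm (log2 change 0.83 ± 0.17, adjusted p = 0.0015, and 0.76 with replicate 2) and Hmox1 (log2 change 1.35 ± 0.30, adjusted p = 0.00309, and 1.12 with replicate 2) higher. Of 22 immediate early genes 2 rose, 2 fell and 18 did not pass, among them Atf3, which fell (log2 change -1.63 ± 0.42, adjusted p = 0.00972, and -1.31 with replicate 2, which did not pass). Klf6 rose (log2 change 0.51 ± 0.13, adjusted p = 0.00744, and 0.19 with replicate 2, which did not pass). With all libraries edgeR called 0 of these, while 3 had an unadjusted p under 0.05 (27.3% of all genes), DESeq2 called 2 (13%) and limma-voom 3 (14.3%). Of 20 clock genes Per1 rose (log2 change 0.92 ± 0.30, adjusted p = 0.0373, and 0.77 with replicate 2, which did not pass), with an adjusted p of 0.0829 without ambulatory replicate 4. Odc1, the first enzyme of polyamine synthesis, fell (log2 change -0.56 ± 0.13, adjusted p = 0.00401, and -0.46 with replicate 2), the 1 of 11 polyamine genes to pass. Of 22 interferon-stimulated genes 0 passed in edgeR without replicate 2, while 2 had an unadjusted p under 0.05 (28.7% of all genes), DESeq2 called 1 (14.9%) and limma-voom 1 (16%). With replicate 2 in, 3 fell.

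Set beside the control muscle, the response in mKO soleus ran in the same directions. The control libraries are other mice, but both responses come from the same fit, with a shared estimate of spread and a shared sex term. With all libraries unloading called 1882 of 16932 genes in controls. In the fit without replicate 2 it called 2685 of 17055, 1345 higher and 1340 lower. Of the genes that rose in mKO muscle 738 also rose in controls, 64.85% of the mKO and 54.87% of the control calls. Of those that fell 843 were shared, 72.42% of the mKO and 62.91% of the control calls. Over all 17055 genes tested, 6.67% rose and 6.82% fell in mKO muscle, and 1345 rose and 1340 fell in controls. No gene was called in opposite directions, and 2290 of the 2302 mKO calls (99.48%) had the same sign in controls. The share with equal signs over all genes tested was not counted, so 99.48% has no background beside it. The difference between the responses was called for 0 genes (0%) in either fit by edgeR. An unadjusted p under 0.05 was found for 218 of 17055 genes without replicate 2 and for 410 of 16932 with all libraries, fewer than the 853 and 847 that make 5% of those tested. limma-voom called 0, and DESeq2 called 3 and 7.

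**Figure D5:**
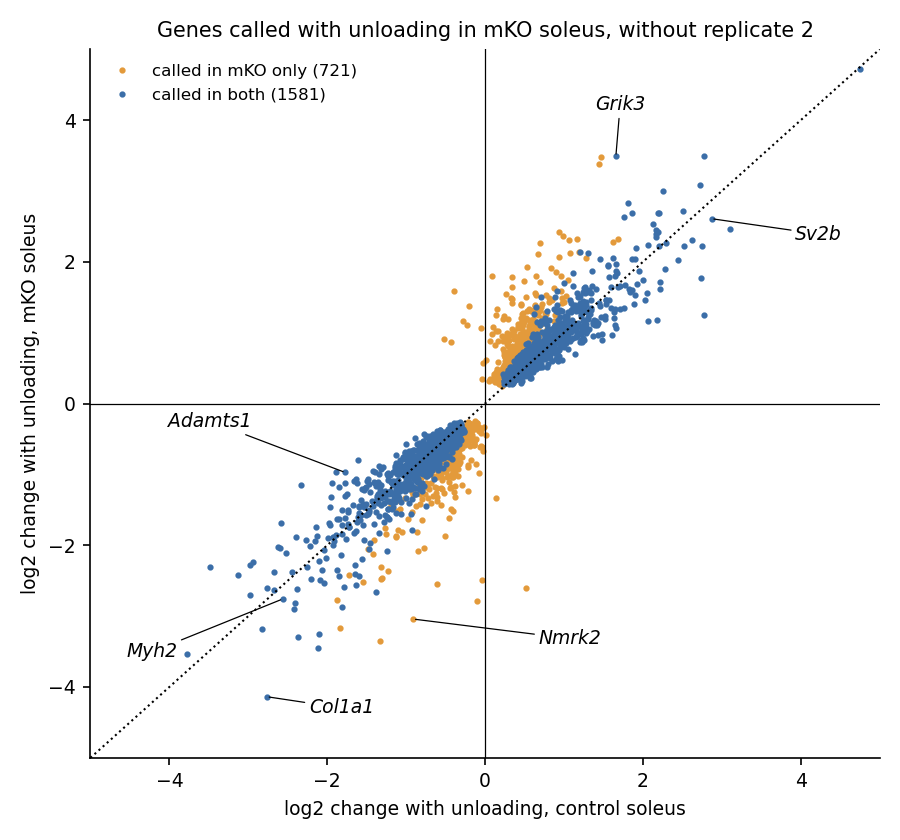
log2 change with unloading of the 2302 genes called in mKO soleus without ambulatory replicate 2, in control muscle (horizontal axis) and in mKO muscle (vertical axis), where the dotted line marks equal change. The 1581 genes called in both (blue) and the 721 called in mKO muscle alone (orange) lie mostly in the quadrants of equal sign, and a call in one genotype alone is not a test of the difference.

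The genes below were picked for small unadjusted p-values of the difference, did not pass after adjustment and are given as a description. Nmrk2 had a change of -3.04 ± 0.60 in mKO muscle and of -0.91 ± 0.55 in control muscle (adjusted p = 0.281). The difference was -2.13 ± 0.82 (unadjusted p = 0.0155, adjusted p = 1, and unadjusted p = 0.0595 with replicate 2). Grik3 rose by 3.49 ± 0.46 in mKO and by 1.66 ± 0.37 in control muscle, a difference of 1.83 ± 0.60 (unadjusted p = 0.00458, adjusted p = 1, and unadjusted p = 0.17 with replicate 2). Adamts1 had a change of -0.97 ± 0.19 in mKO and -1.77 ± 0.19 in control muscle. Its difference was 0.80 ± 0.27 (unadjusted p = 0.00634, adjusted p = 1). Bmf, a pro-apoptotic member of the BCL2 family, rose in controls (1.000 ± 0.14, adjusted p = 1.12e-05). In mKO muscle it did not pass (0.33 ± 0.15, adjusted p = 0.142, and 0.19 with replicate 2). The difference was -0.67 ± 0.21 (unadjusted p = 0.00271, adjusted p = 1). For Bdh1, Rcan1, Cryab and Prkag3, picked as examples, the difference was smaller than 2 of its standard errors. It was 0.28 ± 0.36 for Bdh1, 0.41 ± 0.29 for Rcan1, -0.0062 ± 0.31 for Cryab and -0.044 ± 0.35 for Prkag3. Among the 2302 mKO calls without replicate 2, 64 had an unadjusted p under 0.05 for the difference in edgeR, beside 218 of all 17055 genes. The calls were picked on the mKO change, which is part of the difference, so these counts are not a like comparison.

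Values were also taken within each sex and each title letter. Among males, 3 unloaded against 5 ambulatory, 763 genes passed, and 49 of the 147 named genes no longer did, not all marked above. There Bdh1 changed by -2.56 (adjusted p = 0.00221), Rcan1 by -2.21 (adjusted p = 0.000858), Grik3 by 3.56 (adjusted p = 0.00457) and Nmrk2 by -2.84 (adjusted p = 0.0344). Females, 5 unloaded against 1 ambulatory without replicate 2, give values with no test: the difference in mean log2 CPM was -3.39 for Bdh1, -2.24 for Rcan1, -3.93 for Nmrk2 and -0.79 for Col1a1. Each title ends in a letter (a, b or c) that no label explains. Within a, b and c the difference for Bdh1 was -2.41, -3.42 and -3.37. For Col1a1 it was -5.72, -2.31 and 0.12, and letter c held 1 ambulatory library. Myh1 likewise had a positive difference in a (2.27) and b (1.73) and a negative one in c (-0.53).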

How the data were processed

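Total RNA of whole soleus was made into strand-marking libraries and sequenced on an Illumina NovaSeq, per the labels' protocols. Other protocol text describes people given a drug and cultured myotubes, not mice, and was not used. The table the authors deposited holds raw counts for each Ensembl gene, with no normalisation. cutadapt 1.16, STAR 2.7.9a, featureCounts 1.6.3, DESeq2 1.34.0 and the build GRCm39 (mm39) are named in the submitters' processing notes. The sources used here do not give the annotation release, strand setting or filters. Of 56980 genes 52073 had a symbol in the RefSeq name tables and 4907 did not. The 2 list members without a match were left out.

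Counts of all 30 libraries were fitted in edgeR 4.0.16 (R 4.3.3) with trimmed-mean normalisation, filterByExpr, terms for the 4 groups and sex, and the robust quasi-likelihood test. The fit was repeated without ambulatory mKO replicate 2, because its muscle fibre markers were far below those of the other libraries. p-values were adjusted by Benjamini-Hochberg over all genes tested, with 0.05 as the threshold. Standard errors are the absolute log2 change over the root of F. The steps were tested on simulated counts. CPM use normalisation factors from all 30 libraries, and within-sex and within-letter values are differences of mean log2(CPM + 0.5). Alternatives used DESeq2 1.42.0, limma 3.58.1 (voom), other scalings, filters, covariates and sets of libraries.

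Named were both catalytic subunit genes, the 12 largest rises and falls by log2 change with all libraries among genes with a symbol, called in both fits and with mean CPM no lower than 1. From 60 gene lists (49 pathways, 11 cell types) called members were named, 4 at most, from those with the smallest p without replicate 2. Some of these called members were left out. Also named were members that a sentence on what did not pass needed, and genes with small p for the difference between genotypes. The members and lists were chosen with earlier results of these data known. Promoter sequence came from RefSeq, build GRCm38.p6, and no coordinate was carried to GRCm39.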

Additional observations from a re-analysis of the deposited data

Results flagged for a closer look

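Of 88 combinations of a measure and a group that were examined, 24 had a highest or lowest library set apart from the next one by more than Dixon's 95% limit. That limit is set for about 1 in 20 groups of normally distributed values. Here the values were not put on a log scale and the measures come from the same libraries, so that rate is no benchmark. The 29 genes whose library values are given above, 13 summed lists (cell type markers and slow and fast isoforms), the total count and the mitochondrial share were examined in the 7 ambulatory and the 8 unloaded mKO libraries.

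Ambulatory replicate 2 gave 11 of these. It was the highest library for Prkaa1 (36.19 CPM), Grik3 (3.936 CPM) and the summed markers of adipocytes (12393.2 CPM), fibro-adipogenic progenitors (8268.5 CPM) and Schwann cells (1576.8 CPM). It was the lowest for Bdh1 (4.66 CPM), Myh2 (299.3 CPM), Cryab (118.1 CPM), Adamts1 (22.57 CPM), and the sums of muscle fibre markers (9925.8 CPM) and fast-fibre isoforms (3410.9 CPM).

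Among the other ambulatory libraries, replicate 4 was highest for Col1a1 (13334 CPM, with the next at 4853 CPM) and Scx (57.66 CPM, with the next at 22.52 CPM), and replicate 6 for the sum of lymphocyte and neutrophil markers (6.801 CPM, with the next at 2.67 CPM).

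Among unloaded libraries, replicate 7 was highest for Myh2 (4151.6 CPM), Myh7 (17887.8 CPM), Rcan1 (113.0 CPM), Idh2 (677.4 CPM) and the slow-fibre sum (38435.4 CPM), all of which were lower in the other 7. Replicate 3 was highest for Tnfrsf12a (13.31 CPM) and the Schwann cell sum (1795.4 CPM) and had the lowest share of counts in mitochondrial genes (3.387%). Replicate 4 was highest for the endothelial sum (712.8 CPM) and the erythroid sum (3199.0 CPM, with the next at 659.4 CPM).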

How the results depend on the processing

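The number of genes called with all libraries (1702) was 987 without a low-count filter, 2591 with the title letter as a term, 608 in the 2 mKO groups alone and 763 in males alone. Without ambulatory replicate 2 (2302 genes) it was 1524 without a filter and 763 in males alone, where replicate 2, a female, has no part. Fewer samples entered the fits on males or on mKO muscle alone, and the cause of the changed counts was not tested for any setting. The difference between genotypes, 0 in edgeR, was called for 7 genes by DESeq2 with all libraries and 3 without replicate 2, and for 1 without a filter and without replicate 2.

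Of the 147 genes named, 110 kept their direction and side of the threshold when replicate 2 was added, 98 in males alone, 122 in mKO muscle alone, 128 without ambulatory replicate 4, 129 without a filter, 136 in limma-voom and 144 in DESeq2. Directions turned for genes that had not passed: Prkaa1 (-0.05932), Hspe1 (0.01487) and Trim63 (0.1775) with replicate 2, Trim63 also in limma-voom (0.1361) and without unloaded replicates 2 and 3 (0.007272), and Igf1 without sex (0.4102) and in mKO muscle alone (0.0482). The cause was not tested. No paired analysis was possible because the labels give each mouse its own number and the replicate numbers follow the order of the samples.

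Males and females were unequal in number between loading states. Genes at low counts, among them 7 of 9 lymphocyte and neutrophil markers, could not be tested at this depth.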
